A study of Mus musculus with 24 samples.

Results

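The 9 genes described here, Gm7868, Gm9008, Tacr3, Rad51b, AC149090.1, Ap3s1-ps1, Gm45456, Gm44429 and Gm10524, were selected on their measured values, for near all-or-none shifts between Sox9 mutants and controls or between 2 Cre lines. They are 9 of 51912 genes measured by bulk RNA sequencing of the dissected embryonic archicortex (ARK), the medial strip of the mouse telencephalon that gives rise to the hippocampus and that holds the cortical hem at its edge. The series holds 24 libraries in 6 groups of 4, and the study asked what deletion of Sox9, a transcription factor of neural progenitors, does to this tissue. Sox9fl/fl;Sox1Cre mutants were sampled at E13.5 (A1 to A4) and E12.5 (A9 to A12), with Sox9+/+;Sox1Cre controls at E13.5 (A5 to A8) and E12.5 (A13 to A16). Sox9fl/fl;NestinCre mutants (A17 to A20) and Sox9+/+;NestinCre controls (A21 to A24) were sampled at E13.5 only. All 24 libraries carry the same strain label, mixed C57BL/6J;MF1, and each control carries the Cre of its line but no floxed Sox9. Sox1Cre, knocked into the Sox1 gene, recombines early and throughout the neural tissue. The NestinCre transgene acts later and largely spares the hem, so mutants of that line keep Sox9 in part of the ARK. In bulk RNA, fewer cells of a type and less RNA per cell cannot be told apart. The labels do not say which libraries came from the same litter, and the p-values below measure the spread between these libraries only.

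As background, 5 of the 9 genes are copies of other genes. A processed pseudogene is a messenger RNA that was copied back into the genome of a germ cell, so it lacks introns and resembles its parent gene closely. Such copies and short reads can be hard to assign: a read that fits both the copy and the parent is divided between them by the counting program. C57BL/6J is an inbred strain and MF1 is an outbred stock, so embryos of a mixed cross can carry different alleles at any place in the genome, and a stretch of chromosome beside a targeted gene travels with it through a cross. Tacr3 encodes the receptor for neurokinin B, a neuropeptide, and Rad51b takes part in the repair of broken DNA by homologous recombination. Ap3s1-ps1 is a pseudogene of Ap3s1, a subunit of the AP-3 adaptor that sorts cargo to lysosome-related vesicles. AC149090.1, Gm9008, Gm7868, Gm45456, Gm44429 and Gm10524 have no function that can be stated with certainty.

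The sequences below, from the GENCODE M21 transcripts of GRCm38, are shown because they hold the bases that tell 4 of the genes from the transcript of their closest copy. Capitals mark each base that differs from the copy, and positions are counted from 1 at the 5′ end of the gene's own transcript, with the gene's base first and the copy's base last. In the stretch of Gm7868 from base 165 to 464 (chr12:69123265-69123564, plus strand) 5 bases differ from Txndc9, namely C168A, G186C, A254G, A350G and A461G. The whole 243 bases of Gm45456 (chr7:140315813-140316055, plus strand) hold 5 differences from Abracl, namely A43C, A59G, A106G, A135G and A184G. For Gm9008, 30 bases on the minus strand (chr6:76496704-76496733) hold the difference A1066G from Rnf26, and for Gm44429, 30 bases on the minus strand (chr6:102937354-102937383) hold A183G, its only difference from Ddx3x.
Gm7868: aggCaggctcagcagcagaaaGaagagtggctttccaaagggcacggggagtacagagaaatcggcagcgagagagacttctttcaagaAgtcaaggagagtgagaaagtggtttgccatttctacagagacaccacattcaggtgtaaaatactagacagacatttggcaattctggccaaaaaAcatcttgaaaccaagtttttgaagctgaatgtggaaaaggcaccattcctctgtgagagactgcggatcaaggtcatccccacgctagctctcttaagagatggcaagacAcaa
Gm45456: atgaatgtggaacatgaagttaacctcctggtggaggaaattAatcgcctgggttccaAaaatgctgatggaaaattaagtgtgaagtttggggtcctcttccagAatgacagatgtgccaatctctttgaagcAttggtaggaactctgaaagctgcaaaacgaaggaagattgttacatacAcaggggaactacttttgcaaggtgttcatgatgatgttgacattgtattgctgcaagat
Gm9008: ggccaaatcggggaAgagcaccaggagccc
Gm44429: ctgggttaattttgtgaccagaatgcaAtg

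The labels were checked first against the deleted gene, sex and tissue markers. Sox9 was 3363 ± 376 normalized counts (SD, n = 4) in E13.5 Sox9fl/fl;Sox1Cre mutants against 5578 ± 306 in their controls, 2260.0 ± 508 against 4522 ± 503 at E12.5, and 3134 ± 162 against 5152 ± 465 in the NestinCre line, and no mutant library reached a control library in any of the 3 pairs. A normalized count is the number of reads assigned to a gene divided by 1 size factor per library. The paper reports that recombination removes only part of the floxed Sox9 gene and that the rest is still expressed. The counts left in mutants are thus no measure of intact Sox9. Sox1 was 1135 ± 163 in the E13.5 Sox9+/+;Sox1Cre controls and 2127 ± 309 in the Sox9+/+;NestinCre controls. Xist, which is transcribed from the inactive X of females, was at most 2.26 in the 4 E13.5 Sox1Cre controls and at least 3659.7 in the 4 E12.5 Sox1Cre controls, while each mutant group held 2 libraries of either kind and the NestinCre controls held 1 with high Xist. Ddx3y, a Y gene, showed the reverse, so sex and age cannot be told apart among the Sox1Cre controls. Dorsal telencephalic markers were abundant in every group, with Lhx2 at medians of 12175 to 18523 normalized counts, and the ventral telencephalic genes Nkx2-1, Gsx2 and Dlx2 together reached 250.7 in 1 NestinCre mutant library and at most 26.5 in the other groups. Of the erythroid markers, Hba-a1 was lower in the E12.5 mutants, at a mean of 39054 against 55000.3 without overlap, while Hbb-bt (3463 against 2316) and Alas2 (1648 against 1588) were higher by mean and overlapped. Their sum, mostly Hba-a1, was 34823 to 48928 in the mutants and 56701 to 62843 in the controls. Choroid plexus markers (Ttr, Kcnj13 and Folr1 together) spread from 5531 to 72240 among the E13.5 Sox1Cre mutants. The part of these cells in the values below was not tested.

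The genes were picked for the differences between mutants and controls and between the lines, so these are given as a description and were not tested. All 9 passed the filter on low values (at least 10 in at least 4 of 24 libraries), which kept 16454 genes. Between E13.5 Sox1Cre mutants and controls, 8 of the 9 had no library of one group inside the range of the other, where 5.06% of all genes tested had none. The counts were 4 of 9 at E12.5 (10.3% of all genes) and 5 of 9 in the NestinCre line (4.98%). Between the lines at E13.5, 4 of 9 separated the controls (6.22% of all genes) and 5 of 9 separated the mutants (6.84%). Since these contrasts chose the genes, nothing is read from the counts. Gm7868 separated mutants from controls in the same direction in all 3 genotype comparisons, as did 32 genes (0.194%) of those tested, among them Sox9 itself.

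How step-like each gene was, was measured as the largest gap between neighbouring libraries after sorting the 24 values on the log2(value + 1) scale. Gm9008 (gap 4.97), Gm7868 (3.95), Gm44429 (3.06), Gm45456 (2.71) and Gm10524 (2.14) had gaps above 2. The median gap over all genes tested was 0.17, and 1% of them exceeded 2.88. Rad51b (0.98), AC149090.1 (0.89), Ap3s1-ps1 (0.77) and Tacr3 (0.66) had gaps that 6.93% to 12.6% of all genes matched or passed. With a pseudocount of 5 in place of 1, only 3 genes, Gm9008, Gm7868 and Gm10524, had a gap above 2. The gap describes the values that chose the genes and takes no account of the groups: that of Gm44429 lies between 0 and 7.33 and leaves 3 of 4 E13.5 Sox1Cre controls and 1 NestinCre mutant above it.

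**Figure D1:**
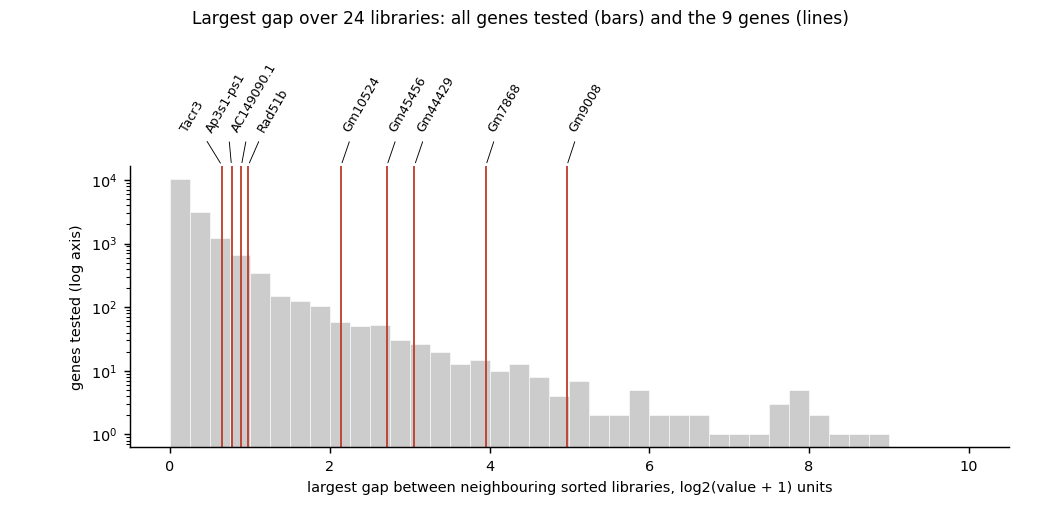
Largest gap between neighbouring sorted libraries (x axis, log2(value + 1) units) for the 16454 genes tested, as bars counted on a log axis, with a line for each of the 9 genes. Gm10524, Gm45456, Gm44429, Gm7868 and Gm9008 lie above 2 and the other 4 lie below 1.

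Gm7868 is a processed pseudogene of 680 bases on chromosome 12 (69123101 to 69123780, plus strand). It was at 195, 191, 199 and 207 normalized counts in the E13.5 Sox1Cre mutants and at 0, 3.79, 4.26 and 0 in their controls. At E12.5 the mutants were at 189, 203, 202 and 233 and the controls at 0, 3.91, 0 and 0. The NestinCre mutants were at 161, 233, 187 and 206, within reach of the Sox1Cre mutants, and the NestinCre controls lay between these levels at 80.4, 111, 111 and 100.2. The 24 libraries thus fell on 3 levels that did not overlap: the 12 mutants, the 4 NestinCre controls and the 8 Sox1Cre controls. The log2 difference between mutants and controls was 6.47 (SE 0.67, n = 4 and 4) in the Sox1Cre line at E13.5, or 4.92 with a pseudocount of 5 in place of 1, and 0.96 (SE 0.15) in the NestinCre line. The E12.5 controls held 3 reads of Gm7868 in all, so no fold is given there.

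The closest transcript to Gm7868 was that of Txndc9, a thioredoxin-domain gene on chromosome 1 (37985189 to 37997893), with 98.7% identity over the whole pseudogene, 8 mismatches and 1 gap. Txndc9 moved the other way, and by a like number of units in the Sox1Cre line at E13.5: there Gm7868 was higher by 196 in Sox1Cre mutants and Txndc9 lower by 209, and the sum of both overlapped between the groups. At E12.5 Txndc9 fell further than Gm7868 rose (a difference of -324 against 206), and the sums did not overlap. In the NestinCre line the differences were 96.3 for Gm7868 and -274 for Txndc9. Gm7868 made up 10.9% to 14.4% of the sum in the 12 mutants, 5.12% to 6.6% in the NestinCre controls and at most 0.251% in the Sox1Cre controls. How the reads that fit both were divided was not tested, so the values of either gene are uncertain.

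Gm9008, annotated as protein coding but without introns in its 2353 bases, lies on chromosome 6 (76495432 to 76497784, minus strand), where its exon overlaps Gm44166 on the opposite strand. It was at 292, 278, 243 and 234 normalized counts in the E13.5 Sox1Cre mutants and at 3.4, 0.947, 0 and 0 in their controls. In the NestinCre line the mutants were at 599, 699.9, 594 and 625 and the controls at 303, 345, 288 and 261. No mutant library of either line was as low as a control of the same line at E13.5. At E12.5 the Sox1Cre mutants disagreed among themselves at 342, 4.05, 342 and 709, while the controls were at 0, 6.52, 0 and 0. Library A10 (4.05) lay with the controls and A12 (709) with the NestinCre mutants. Without A10, or without the control A14 (6.52), the E12.5 groups no longer overlapped. The E12.5 controls held 5 reads of Gm9008 in all, so the size of the log2 difference depends on the pseudocount, at 6.44 (SE 1.78) with 1 and 4.76 with 5. It also depends on single libraries, at 8.04 without A10 and 5.67 to 8.04 when each library was left out (pseudocount 1).

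The closest transcript to Gm9008 was that of Rnf26, a gene for a membrane-bound ubiquitin ligase on chromosome 9 (44095631 to 44113517), with 99.1% identity over 98.5% of the length and 17 mismatches. The share of Gm9008 in the sum of both was 11.8% to 13% in E13.5 Sox1Cre mutants, 12.6% to 15.2% in NestinCre controls and 28.8% to 29.3% in NestinCre mutants. The 4 E12.5 mutants were at 13.6%, 0.125%, 12.8% and 27.2%, so A12 stood near the NestinCre mutants and A10 with the Sox1Cre controls. Over the 24 libraries Rnf26 ran against Gm9008 with a Pearson r of -0.83, as a description over libraries that share groups and normalization. In units the 2 genes did not balance in E13.5 Sox1Cre mutants, where Gm9008 differed from controls by 261 and Rnf26 by -661, and the sums did not overlap. The differences were 348 and -566 at E12.5 and 330 and -346 in the NestinCre line, with overlapping sums. In A10, where Gm9008 was at 4.05, Rnf26 was at 3243, above the 1900.4 to 2339 of the other E12.5 mutants.

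**Figure D2:**
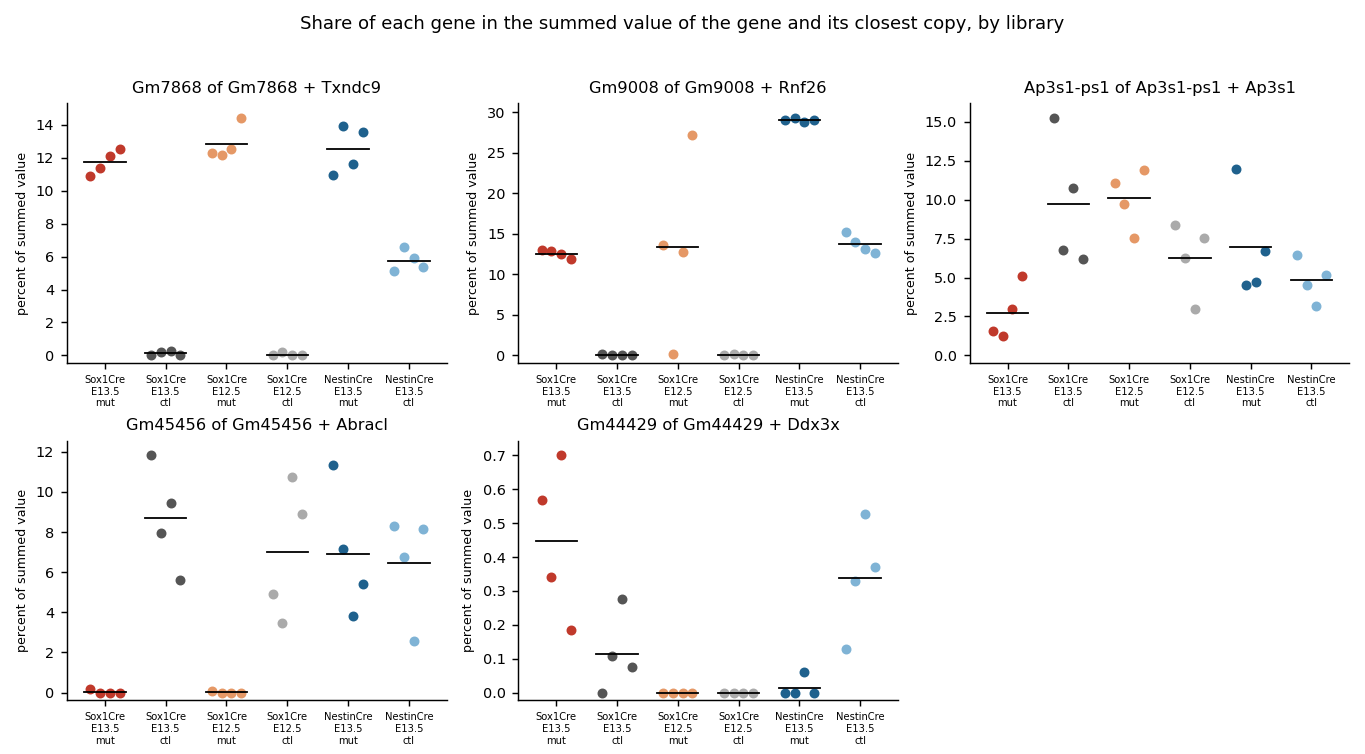
Share of each copy in the summed normalized count of the copy and its closest transcript (y axis, percent), by library (points, in library order within each group) with group means as lines. Gm7868 and Gm9008 fall on 3 levels, Gm45456 is at or near 0 in the 8 Sox1Cre mutants, and Ap3s1-ps1 shows no such levels.

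The genes whose values ran most like those of Gm9008 over the 24 libraries were Gm16092 (Pearson r 0.98), a long non-coding RNA on chromosome 1, and the processed pseudogenes Gm29718 (0.97) on chromosome 1 and Gm13410 (0.97) on chromosome 2. Gm16092 was at 23.7, 22.6, 30.8 and 25.5 in the E13.5 Sox1Cre mutants, at 59.7, 54.7, 49.5 and 64.1 in the NestinCre mutants, at 26.8, 31.8, 24 and 27.7 in the NestinCre controls and at 0 in all 8 Sox1Cre controls. In the E12.5 mutants it was at 25.9, 0, 27.4 and 53.5. The exception of A10 was thus shared by Gm16092 (0), Gm29718 (0) and Gm13410 (0.81), and A12 was the highest E12.5 mutant for Gm16092 and Gm29718 (76.5) but not for Gm13410 (66.3 against 73.7 in A11). The genes that ran most closely against Gm9008 were Cbl, a ubiquitin ligase of growth factor receptors, and Trappc12, a vesicle tethering gene on chromosome 12, both with an r of -0.90. Cbl was at 3194 to 3863 in E13.5 Sox1Cre mutants, 5135 to 5828 in their controls, 2520.4 to 3087 in NestinCre mutants and 3341 to 3635 in NestinCre controls. In A10 Cbl was at 5070.1, and in the other E12.5 mutants at 3955, 4219 and 2457.

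Gm9008 and Gm13410 lie on different chromosomes, but their closest copies lie on the same one. The closest transcript to Gm13410 was that of Ddx6, an RNA helicase (92.8% identity). Ddx6, Cbl and Rnf26 all lie on chromosome 9, with Cbl 121 kb and Ddx6 491 kb from Rnf26 by their start sites. Gm16092 and Trappc12 lie elsewhere, and none of the genes named here lies on chromosome 11 with Sox9 or on chromosome 8 with Sox1. The positions of the parents were looked up after the values were seen.

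**Figure D3:**
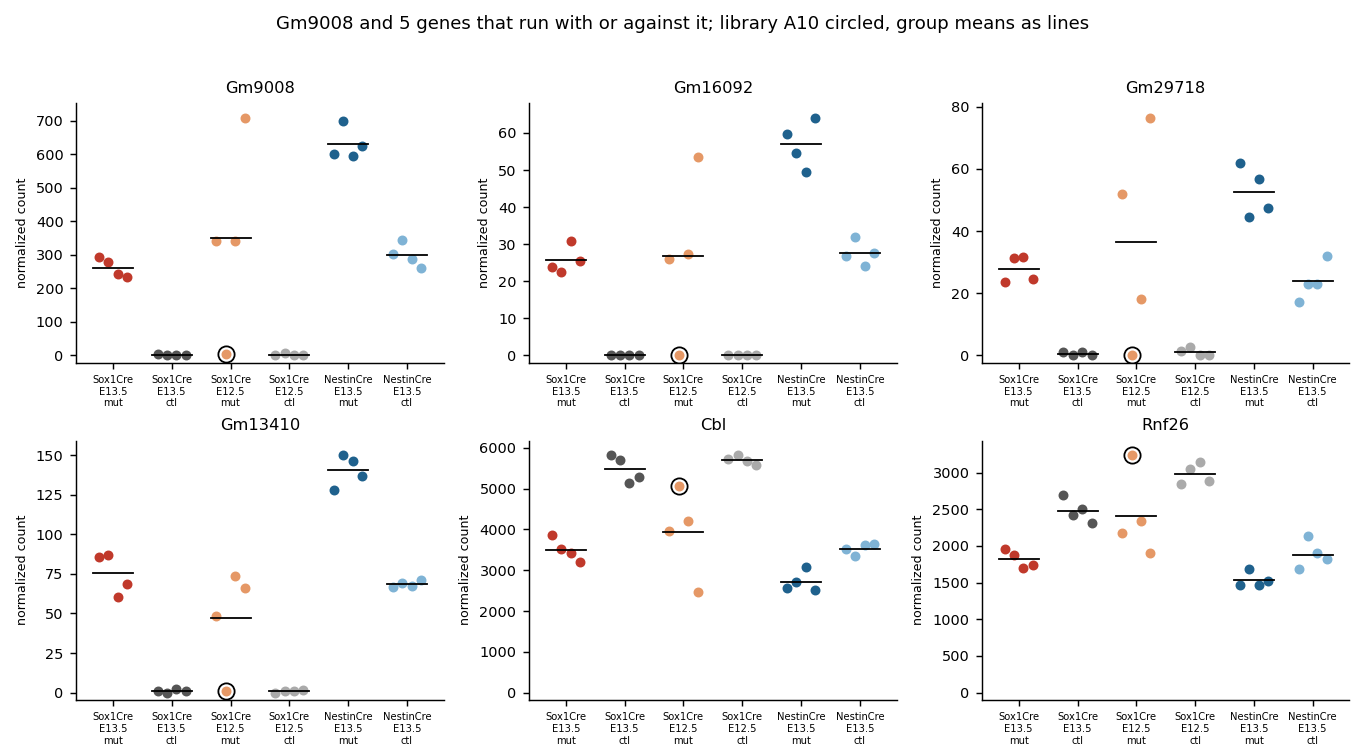
Normalized counts (y axis) of Gm9008, the 3 genes most like it, Cbl and Rnf26 in each library (points, in library order within each group), with group means as lines and A10 circled. A10 is at or near 0 in the upper 3 panels and for Gm13410, and at 5070.1 for Cbl and 3243 for Rnf26.

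AC149090.1, a protein-coding gene on the unplaced scaffold JH584304.1 (52190 to 59690, minus strand), ran opposite to Gm7868 (r -0.90). It was at 158, 101, 159 and 76.4 normalized counts in the E13.5 Sox1Cre mutants against 407, 639, 541 and 739 in their controls. At E12.5 the mutants were at 33.9, 85.8, 73.7 and 80.3 and the controls at 575, 493, 929 and 712. In the NestinCre line the mutants were at 72.3, 76.4, 62.3 and 169.7 and the controls at 209.7, 157, 157 and 219. The controls of the 2 lines did not overlap, while the NestinCre groups overlapped through A20 (169.7). The log2 difference between mutants and controls was -2.26 (SE 0.32) in the Sox1Cre line at E13.5, -3.33 (SE 0.36) at E12.5 and -1.06 (SE 0.35) in the NestinCre line, or -1.37 without A20.

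The gene that ran most like AC149090.1 was Mettl23 (r 0.91), a methyltransferase gene on chromosome 11, 4.06 Mb from Sox9. Mettl23 was at 174 to 214 in E13.5 Sox1Cre mutants, 181 to 221 at E12.5 and 176 to 195 in NestinCre mutants. The NestinCre controls were at 345 to 391 and the 8 Sox1Cre controls at 497 to 571, so it fell on 3 levels as Gm7868 did. Mettl23, and Nat9, an acetyltransferase gene 2.41 Mb from Sox9, were also among the 32 genes that separated mutants from controls in the same direction in all 3 comparisons. Another of these, 4933434M16Rik, a non-coding RNA whose start lies 42.9 kb from that of Sox9, was at 0 in the 8 Sox1Cre controls and at 6.48 to 17.8 in the 12 mutants. Of the 9 genes, 8 lie on chromosomes other than 8 and 11, and the place of AC149090.1 is not known.

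Tacr3 lies on chromosome 3 (134829007 to 134934579, plus strand). It was at 258, 228, 239.6 and 191 normalized counts in the E13.5 Sox1Cre mutants and at 20.4, 32.7, 69.2 and 85.8 in their controls. The NestinCre mutants were at 177, 148, 118 and 157 and the controls at 47.9, 38.0, 107 and 43.7. At both places every mutant was above every control, by a log2 difference of 2.32 (SE 0.48) in the Sox1Cre line and 1.44 (SE 0.35) in the NestinCre line. At E12.5 the mutants spread over 139, 34, 245 and 106 and the controls over 46.7, 46.9, 56.4 and 59.1, so the groups overlapped through A10 (34), the library that also stood apart for Gm9008. Without A10 the log2 difference at E12.5 went from 1.01 (SE 0.60) to 1.54. The nearest gene that separated the E13.5 Sox1Cre groups was Oaz2-ps, a pseudogene 698 kb away, at 39.2 to 51.9 in mutants and 14.1 to 28.4 in controls.

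Of the other 5 tachykinin genes, which encode the peptides and the receptors of this family, only Tacr1, the receptor for substance P, passed the filter. Its groups overlapped in each of the 5 comparisons, at group medians of 89.9 to 159.8 normalized counts. Tac1, which encodes substance P, had group medians of at most 4.5. Tac2, which encodes the neurokinin B peptide that Tacr3 binds, had group medians of at most 3.1, and Tac4 and Tacr2 had medians of 0 in every group. For comparison, 3 reads in a library are worth 1.42 to 4.38 normalized counts, so the medians of Tac2 lay near that floor.

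Rad51b lies on chromosome 12 (79297282 to 79814690, plus strand), 10.2 Mb from Gm7868. It was at 220.0, 501, 419.5 and 234 normalized counts in the E13.5 Sox1Cre mutants against 99.7, 111, 98.0 and 67.9 in their controls. At E12.5 the mutants were at 359, 398, 388 and 859 and the controls at 107, 74.3, 95.2 and 96.5. The log2 difference was 1.79 (SE 0.33) at E13.5 and 2.33 (SE 0.31) at E12.5, and no groups overlapped. In the NestinCre line the mutants were at 241, 431, 260.2 and 273 and the controls at 103, 314, 109.8 and 98.1. A22 (314) alone made these groups overlap, and without it the log2 difference went from 1.09 (SE 0.44) to 1.49.

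Gm45456 is a processed pseudogene on chromosome 7 whose 243 bases match the coding sequence of Abracl, a small gene on chromosome 10 (18011260 to 18023288), with 97.9% identity. It was at 1.83, 0, 0 and 0 normalized counts in the E13.5 Sox1Cre mutants and at 71.3, 42.6, 47.9 and 34.6 in their controls. At E12.5 the mutants were at 0.617, 0, 0 and 0 and the controls at 30.6, 23.5, 65.2 and 50.2. The 8 Sox1Cre mutants held 3 reads in all, 2 in A1 and 1 in A9, so no fold is given. The NestinCre mutants were at 71.2, 40.7, 24.7 and 30.6 and their controls at 45.0, 35.4, 17.5 and 49.0, which overlapped each other and the Sox1Cre controls. Gm45456 thus separated the Sox1Cre mutants from the other 4 groups and did not separate NestinCre mutants from controls. Abracl was at 1037 in A1, at 581 to 642 in the other E13.5 Sox1Cre mutants and at 460.2 to 583 in controls. The groups overlapped only through A3 (580.6) and A8 (582.9). The r of Abracl with Gm45456 was -0.55.

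The genes most like Gm45456 were Zfp277 (r 0.90), a zinc finger gene on chromosome 12, Gm5512 (0.90) and Sox6 (0.87), a transcription factor gene on chromosome 7. Gm5512 is a pseudogene on chromosome 19 whose closest transcript was that of Rmnd1, a mitochondrial gene on chromosome 10 (99.5% identity). Rmnd1 ran most closely against Gm45456 (-0.84), followed by Mtrf1l (-0.83), a mitochondrial release factor gene on the same chromosome. Gm5512 was at 45.2 to 68.5 in E13.5 Sox1Cre mutants and 103 to 127 in controls, while Rmnd1 was at 269 to 304 in the mutants and 200.4 to 229.9 in the controls. Rmnd1 and Mtrf1l lie 13.6 Mb and 12.2 Mb from Abracl. Zfp277 was at 85.8 to 124 in E13.5 Sox1Cre mutants and 239 to 565 in controls.

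Gm44429 is a processed pseudogene of 186 bases on chromosome 6, 26.4 Mb from Gm9008. It differs at 1 base from the part of Ddx3x downstream of the coding sequence. Ddx3x encodes an X-linked RNA helicase. Gm44429 was at 87.6, 54.8, 111 and 23.5 normalized counts in the E13.5 Sox1Cre mutants and at 0, 13.7, 36.2 and 10.2 in their controls. All 8 E12.5 libraries were at 0. In the NestinCre line the mutants were at 0, 0, 7.33 and 0 and the controls at 16.3, 41.6, 86.7 and 53.3, the reverse of the order in the Sox1Cre line. In the Sox1Cre line at E13.5 the groups overlapped through A4 (23.5) and A7 (36.2) and did not overlap without either. Ddx3x was at 11385 to 16343 over the 24 libraries, and Gm44429 made up at most 0.702% of the sum of both. How reads that fit both were divided was not tested.

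Ap3s1-ps1 is a processed pseudogene of 579 bases on the X chromosome (38685592 to 38686170, minus strand), with 99.1% identity to Ap3s1. It was at 42.9, 24.7, 57.7 and 114 normalized counts in the E13.5 Sox1Cre mutants and at 277, 137, 264 and 160.1 in their controls. The E12.5 mutants were at 169.5, 136, 136 and 161 and the controls at 146, 111, 47.6 and 144. The NestinCre mutants were at 201, 87.8, 95.3 and 131 and the controls at 124, 80.5, 62.7 and 108. Only the E13.5 Sox1Cre mutants separated from their controls, with a log2 difference of -1.94 (SE 0.52), and the values at E12.5 (0.54, SE 0.38) and in the NestinCre line (0.42, SE 0.35) had the other sign and overlapping groups. The difference between these comparisons was not tested. Ap3s1 itself overlapped in each of the 5 comparisons, and its r with the pseudogene was -0.32. Of the 7 AP-3 subunits, Ap3m1 alone was without overlap in a genotype comparison, at 2819 in E12.5 Sox1Cre mutants against 3067 in controls, where 10.3% of all genes were without overlap.

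Gm10524 is a transcript of uncertain status (1893 bases) on chromosome 18 (82692284 to 82694176, plus strand) whose exon overlaps Zfp236, a zinc finger gene on the opposite strand. The strand setting of the counting is not given in the sources used here, so reads of the pair cannot be told apart. Gm10524 was at 325, 329, 368 and 313 normalized counts in the E13.5 Sox1Cre mutants and at 30.6, 209, 22.4 and 218 in their controls. In the NestinCre line the order was the reverse, with mutants at 32.5, 40.7, 22.9 and 25.6 and controls at 183, 189, 368 and 195. The log2 difference was 2.13 (SE 0.87) in the Sox1Cre line and -2.87 (SE 0.30) in the NestinCre line, with no overlap in either. The controls of the Sox1Cre line were themselves of 2 kinds, with A5 and A7 at 30.6 and 22.4 and A6 and A8 at 209 and 218. At E12.5 the mutants at 197, 296, 375 and 201 and the controls at 442, 378, 192 and 228 overlapped. Over the 24 libraries, 6 lay at or below 40.7 and 18 at or above 183.

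**Figure D4:**
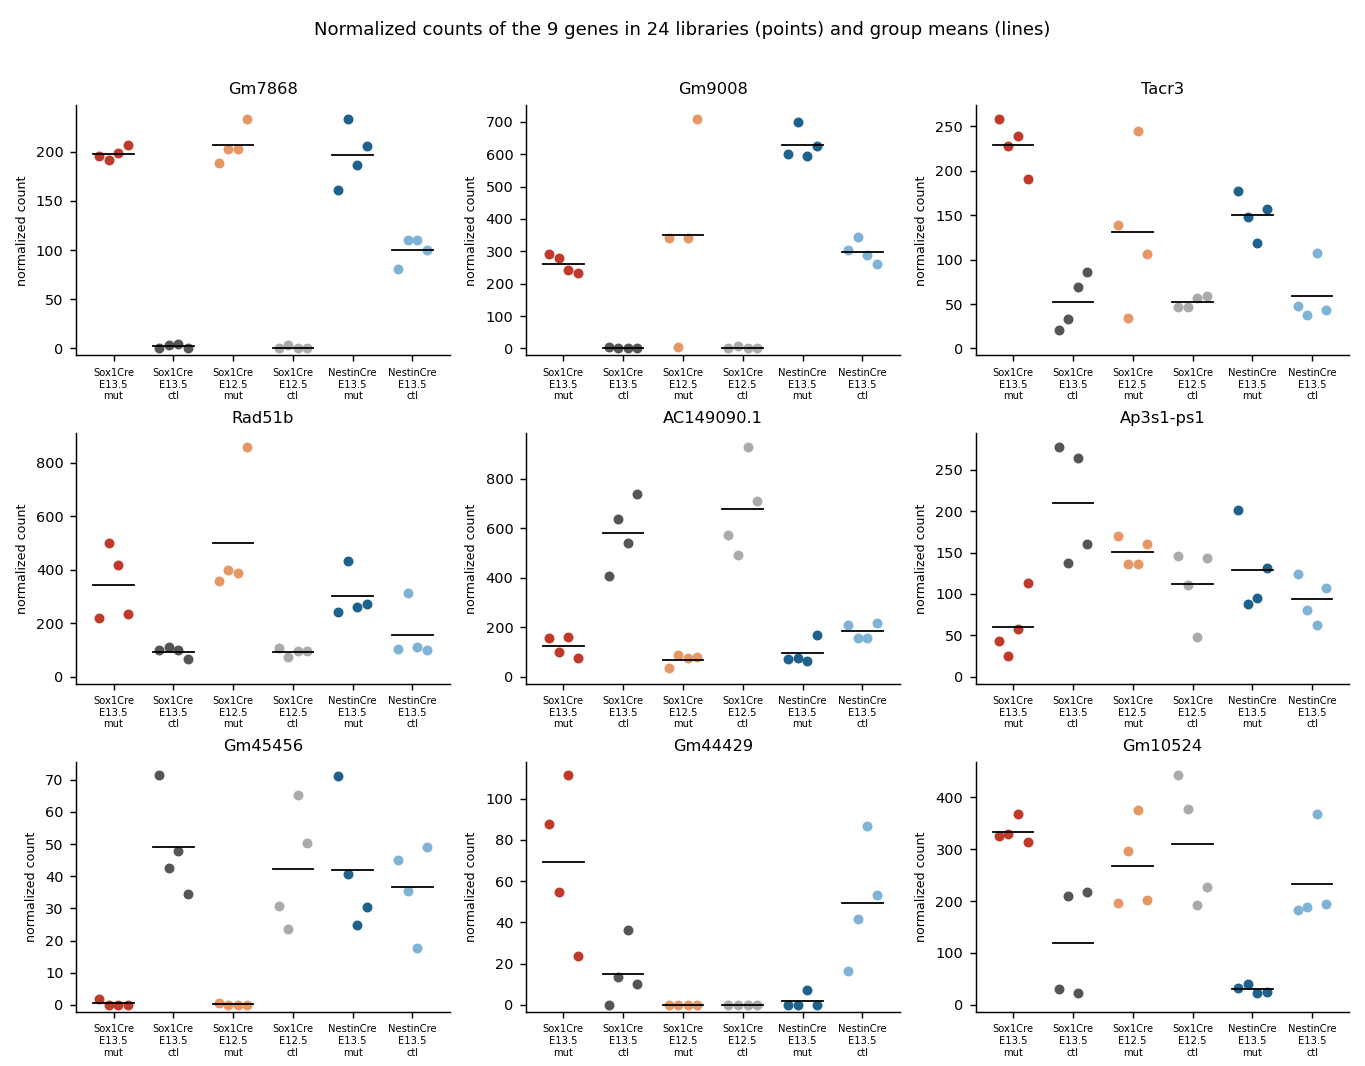
Normalized counts (y axis, own scale for each gene) of the 9 genes in the 24 libraries (points, in library order within each group), with group means as lines. Gm7868 shows 3 levels, Gm45456 is at or near 0 in the 8 Sox1Cre mutants, and Gm10524 is low in the NestinCre mutants and in 2 Sox1Cre controls.

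Genes near the 9 genes separated the groups at shares below, near or above that of all genes, depending on the comparison. Of 110 genes tested within 1 Mb, 2 were without overlap between E13.5 Sox1Cre mutants and controls (1.82%, beside 5.06% of all genes). The counts were 11 at E12.5 (10%, beside 10.3%), 8 in the NestinCre line (7.27%, beside 4.98%), 10 between the controls of the lines (9.09%, beside 6.22%) and 8 between the mutants of the lines (7.27%, beside 6.84%). AC149090.1 had no other tested gene on its scaffold, and Gm9008 and Gm44429 had 2 neighbours each. The nearest genes without overlap in the comparison where each gene differed most were Dnaaf2 (75.3 kb, 465 against 369.8 in E12.5 Sox1Cre mutants and controls), Gm49384 (294 against 366) and Pole2 (314 against 389.9) beside Gm7868, Oaz2-ps beside Tacr3, and Gm17383 (7.2 in NestinCre against 26.5 in Sox1Cre mutants) beside Gm10524. The pseudogene Rpl3-ps1, within 1 Mb of Ddx3x, was at a mean of 19554 in NestinCre against 2134 in Sox1Cre mutants. Around the 5 closest copies the counts were 8, 14, 14, 9 and 13 of 97 in the same order, or 8.25%, 14.4%, 14.4%, 9.28% and 13.4%. Of the 97 genes 46 lie around Rnf26, where 5, 9, 10, 5 and 6 were without overlap. Around the other 4 copies the counts were 3, 5, 4, 4 and 7 of 51. With a window of 5 Mb the share around the 9 genes in the first comparison was 4.12%, near that of all genes. The shares are descriptions, since neighbouring genes are not independent.

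**Figure D5:**
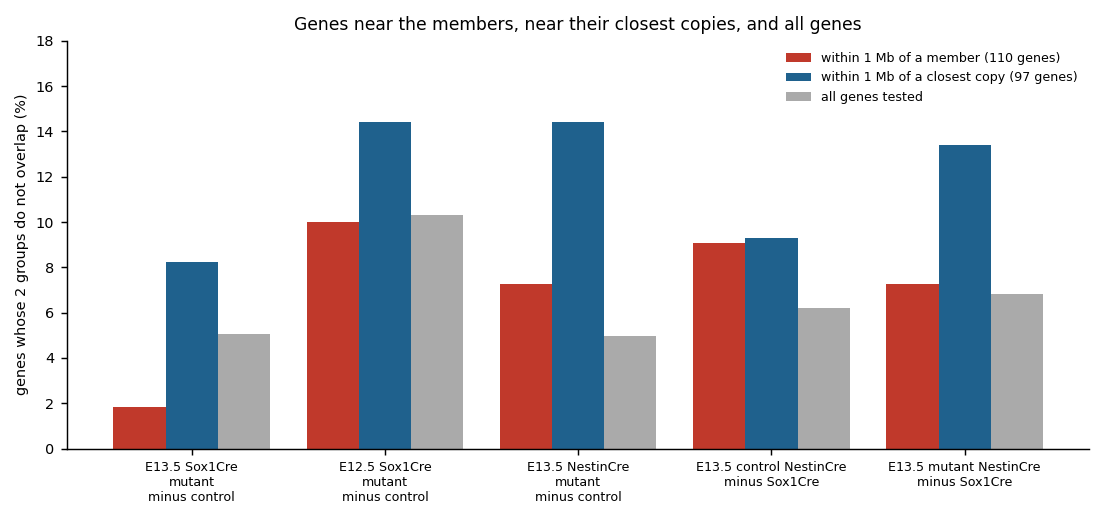
Percent of genes whose 2 groups of 4 did not overlap (y axis) in each of the 5 comparisons, for 110 genes within 1 Mb of the 9 genes, 97 genes within 1 Mb of their 5 closest copies, and all 16454 genes tested. Around the 9 genes the share is 1.82% in the first comparison (4.12% within 5 Mb) and 10% in the next, where all genes give 5.06% and 10.3%.

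By the same measure, r over the 24 libraries as a description, Tacr3 ran most like 4933434M16Rik (0.84), Palld (0.83) and Hspb1 (0.80) and against Pitpnc1 (-0.84) and Mmp17 (-0.81). Rad51b ran most like Nat9 (0.83), Tmem260 (0.81) and 4933434M16Rik (0.79) and against Mettl23 (-0.88) and Sox9 (-0.86). Of these, 4933434M16Rik, Pitpnc1, Nat9 and Mettl23 lie on chromosome 11 with Sox9, Pitpnc1 at 5.31 Mb from it. Gm7868 ran with Gm7993 (0.88) and Gm16092 (0.87) and against Mettl23 (-0.90), and AC149090.1 ran with Duxbl3 (0.84) and 2410018L13Rik (0.82) and against Nat9 (-0.87). The remaining 3 genes had other partners. Gm44429 ran most like Rnpc3 (0.86), Zfp788 (0.85) and Zbtb11 (0.83) and against Gm10182 (-0.83) and Zmym3 (-0.82). Gm10524 ran most like Trmu (0.80), Gm42427 (0.78) and 6430562O15Rik (0.75) and against Rbpj-ps3 (-0.71) and Gnb1 (-0.70). Ap3s1-ps1 ran most like Gm10241 (0.71), Gm11223 (0.71) and Higd2a (0.69) and against Gm12940 (-0.74) and Ccdc88a (-0.72).

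The 9 genes were related to each other in part. Over the 24 libraries Gm7868 ran with Gm9008 (r 0.91), Rad51b (0.78) and Tacr3 (0.61) and against AC149090.1 (-0.90). Rad51b ran against AC149090.1 (-0.81) and Gm45456 (-0.71). Gm10524 and Gm44429 had an r between -0.50 and 0.25 with the other genes. These r values describe libraries that fall into 6 groups and share 1 normalization.

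The age of the embryos is a contrast that the choice of genes did not name, but it uses the same Sox1Cre libraries as the genotype comparisons. E13.5 was compared with E12.5 in the Sox1Cre line over 16 libraries, with limma on log2(value + 1) and Benjamini-Hochberg adjustment over the 16454 genes. By it 5568 genes (33.8%) changed with age. Gm44429 was at 42.2 on average at E13.5 and at 0 in the 8 E12.5 libraries. Against a floor of 3 reads per library it was at least 26.0-fold higher at E13.5 in the mutants and at least 4.01-fold higher in the controls. The control bound rests largely on A7 (36.2), while A5, A6 and A8 were at 0, 13.7 and 10.2. Without A7 the mean of the E13.5 controls went from 15.1 to 7.995, so the bound is smaller. All 11 libraries in which Gm44429 reached 10 are E13.5 libraries, so it entered the test only through the age at which it is high. For that reason Gm44429 is given neither a call nor a p. The adjusted p values of the other 8 ran from 0.112 for Gm10524 (log2 difference -0.79, SE 0.37) to 0.654 for Gm9008 (0.46, SE 0.70). Gm10524 passed when A6 or A8 was left out (limma, adjusted p = 0.0298 and 0.0268). These E13.5 controls were at 209 and 218, where A5 and A7 were at 30.6 and 22.4. The E13.5 values that chose the genes enter this contrast too, and sex goes with age among the controls. No age effect of a gene, or lack of one, is therefore read from these p values. Gm7868 differed by 0.27 (SE 0.35), Gm45456 by 0.23 (SE 0.30), Rad51b by -0.26 (SE 0.24), Tacr3 by 0.45 (SE 0.32) and AC149090.1 by 0.32 (SE 0.23).

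Within a genotype the E13.5 group is one whose values chose the genes, so the levels by age within a genotype are a description with no test. Gm44429 was at 69.3 on average in E13.5 Sox1Cre mutants and at 15.1 in E13.5 controls, against 0 at E12.5 in both. Ap3s1-ps1 was at 59.7 against 151 in the mutants and at 209.7 against 112 in the controls, so its order by age was opposite in the 2 genotypes. Gm10524 was at 120.03 against 310 in the controls, where sex and age cannot be told apart.

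Over both genotypes Ap3s1, the parent of Ap3s1-ps1, was higher at E13.5, at 2081 against 1507 normalized counts (limma, log2 difference 0.46, SE 0.09, adjusted p = 0.000673). Of the 7 AP-3 subunits 2 rose, Ap3s1 and the neuronal subunit Ap3b2 (379 against 177), and none fell, beside the 33.8% of all genes that changed, and Tacr1 did not pass the test. The 4 cortical hem markers Wnt3a, Wnt8b, Lmx1a and Rspo1 were all lower at E13.5, Wnt8b, the most abundant, at 5479 against 11958 (adjusted p = 5.22e-05), and the sum of the 4 had group medians of 10577 and 10970 at E13.5 and 22022 and 21104 at E12.5. Of the dorsal telencephalic markers 3 rose and 2 fell, of the Cajal-Retzius markers 1 rose and 2 fell, 2 of 3 meningeal and 2 of 3 erythroid markers fell, and no choroid plexus or endothelial marker passed the test, nor did the only 1 of 3 ventral markers that was tested. The part of these shifts in the values of the 9 genes was not tested.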

How the data were processed

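RNA of 24 dissected ARK samples was sequenced by the authors, who trimmed reads with Trimmomatic 0.36, aligned them to GRCm38 (Ensembl release 89) with STAR 2.5.2a, estimated gene counts with RSEM 1.2.31 and normalized them with DESeq2. The authors deposited 1 table of signal: estimated counts, rounded to whole reads and scaled by DESeq2 size factors, not log transformed. Whole reads were recovered from these steps: 100% of values were within 0.01 of a whole read in each library, from 16163560 to 49445219 reads per library. In A3 a read is worth 0.994 units, so its steps are harder to tell from rounding.

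The genes and lists were chosen with earlier results of these data known. Values were summarized with Python 3.11.15 and pandas 2.3.3, and replicates of 1 group differed by more than counting noise, most of all in the pairs with A1. Copies were found with BLAST+ 2.17.0 against GENCODE M21 transcripts (at least 90% identity over at least 50% of the length), and 8 of 9 genes had a transcript there. The rule for named genes took the 9, their copies, up to 3 nearest separating neighbours each, the 3 genes most like and 2 most unlike each, sex markers and the lists, and not all of the neighbours of copies are printed. The age test used limma 3.58.1 in R 4.3.3 with 1 mean per group over all 24 libraries, two-sided, at an adjusted p of 0.05. On simulated data with 197 changed genes of 16291 it recovered 85.3%, with 5.62% false calls. The simulation held no effect of sex or genotype and far fewer changed genes than passed here, so these rates do not carry over to the data. Alternatives were other pseudocounts, filters and normalizations, Xist as a covariate, a wider window and each library left out. edgeR 4.0.16 and DESeq2 1.42.0 were run on the recovered reads as well. No column was left unmapped. Results of 1 gene list and 1 closest copy are not reported here.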

Additional observations from a re-analysis of the deposited data

Results flagged for a closer look

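In a group of 4, a library was singled out where its gap to the nearest other library was most of the group's range (Dixon's test). This happened in 11 of the 54 groups of the 9 genes. Chance gives about 1 in 20 groups where values are continuous and not selected, which does not hold here, so the count is not read against it. In 5 of the 11 the library held a few reads where the rest held none: A14 for Gm7868 (3.91) and for Gm9008 (6.52) among E12.5 Sox1Cre controls, A1 (1.83) and A9 (0.617) for Gm45456 among Sox1Cre mutants, and A19 (7.33) for Gm44429 among NestinCre mutants. Among NestinCre controls A23 was high for Tacr3 (107, the others 38.0 to 47.9) and for Gm10524 (368, the others 183 to 195), and A22 for Rad51b (314, the others 98.1 to 109.8). Among NestinCre mutants A18 was high for Rad51b (431, the others 241 to 273) and A20 for AC149090.1 (169.7, the others 62.3 to 76.4). Among E12.5 Sox1Cre mutants A12 was high for Rad51b (859, the others 359 to 398). A12 is also the highest of its group for Gm9008, and A23 is the only NestinCre control with high Xist.

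Gm10524 moved in opposite directions in the 2 lines at E13.5, by a log2 difference of 2.13 in Sox1Cre mutants and -2.87 in NestinCre mutants against their controls, with every mutant on one side in each line. The difference was not tested, since the gene was chosen for it.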

How the results depend on the processing

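The number of genes that passed in the age contrast, 5568, was between 4094 (Xist as a covariate) and 5900 (DESeq2) under the planned settings. It was 4904 to 6015 when each library was left out in turn. Within the controls the number went from 1892 to 0 with Xist as a covariate, and within the mutants from 4263 to 4281. Sex and age go together in the controls, so the 0 does not tell them apart. A filter on a mean of at least 100 removed Gm44429 from the test. Gm10524 passed without A6 (log2 difference -1.03) or without A8 (-1.04), both E13.5 controls, and no age effect is read from this. The levels by age within each genotype were added after seeing the data. With a pseudocount of 5 in place of 1, 3 genes in place of 5 had a largest gap above 2. In a window of 5 Mb in place of 1 Mb, the share of separating genes around the closest copies was 8.7% in the NestinCre comparison and 7.61% between the mutants of the lines, but 17.4% at E12.5, and around the 9 genes it was 4.12% in the E13.5 Sox1Cre comparison. Of 45 differences of the 9 genes, 10 moved by more than the SD with a pseudocount of 5 and 3 with 0.5. With Xist as a covariate 2 moved, and with quantile normalization 1. None changed sign among those without overlap, but a change of pseudocount could not have changed it there. Leaving out 1 library of a group of 4 cannot move a difference by more than the SD, so nothing is read from that measure. With 1 library left out, the number of the 9 without overlap was 4 to 6 at E12.5 (6 without A10). It was 8 to 9, 5 to 6, 4 to 5 and 5 to 6 in the other comparisons. The depth limits values under 3 reads per library.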
